A study of Rattus norvegicus with 36 samples.

Results

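The microRNAs described here come from the imprinted Dlk1-Dio3 locus, which in the rat lies on chromosome 6. They were chosen by name. Every row of the deposited microRNA table whose number after miR- belongs to a list of 41 numbers of this locus was taken, with the letter and the arm (5p or 3p) ignored. This gave 74 rows of the 835 names in the table, which cover 40 of the 41 numbers. The rule itself uses names and no measured value, but it was set with earlier results of these data known. miR-770 was not analysed here. Male rats gave the tissue, a piece of the descending aorta from the chest, with 1 animal to a library. SS is the Dahl salt-sensitive rat, an inbred strain whose blood pressure rises on a salty diet. S2Ba and S2Bb are congenic rats on that SS background, with Brown Norway (BN) sequence in the distal portion of chromosome 2 in S2Ba and in its middle segment in S2Bb. Each of these 3 strains was fed a normal-salt diet, or a high-salt diet of 4% NaCl, from an age of 4 to 6 weeks until 12 to 13 weeks.

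Of the 36 labelled samples, 6 in each of 6 groups, 32 libraries were analysed. On each diet they were 5 libraries of SS, 5 of S2Ba and 6 of S2Bb. On normal salt, replicate 1 of SS and replicate 4 of S2Ba held the same value for every name, so both were left out. On high salt, replicate 3 of SS and replicate 2 of S2Ba were not analysed here. The microRNA reads recovered per library numbered 2.31 to 42.4 M (M for mega), with a median of 19.4 M. The shallowest was SS high-salt replicate 2, followed by SS normal-salt replicate 6 at 6.56 M. Levels are given in nRPM, the normalized reads per M reads that the authors deposited. The smooth muscle microRNA miR-143-3p averaged 551217 nRPM. The neuronal miR-124-3p and miR-137-3p and the hepatocyte miR-122-5p averaged 0.102, 0.00415 and 0.242 nRPM and were at 0 in 17, 30 and 12 of the 32 libraries. Other names of the same marker lists were higher. The 6 neuron markers in the table summed to 33.5 to 88.1 nRPM per library, and 3 of them averaged above 1 nRPM. The 3 liver markers summed to 266 to 793 nRPM, and 2 of them averaged above 1 nRPM. SS high-salt replicate 2 stood apart from the other 31 libraries in its markers. The summed level of the 4 smooth muscle markers was 237274 nRPM there, against 340943 to 742576 nRPM elsewhere. The 6 listed striated muscle markers, led by miR-133a-3p, summed to 1576 nRPM there, against 445 to 755 nRPM elsewhere. Only 3 of these 6 averaged above 1 nRPM. Over the 32 libraries miR-133a-3p averaged 603 nRPM, while miR-1-3p, miR-208a-3p and miR-206-3p averaged 0.615, 0.0641 and 0.0123 nRPM. The endothelium, mesenchyme and fibroblast, and liver sums of SS high-salt replicate 2 were also below all others, at 793, 3247 and 266 nRPM. Elsewhere they ran from 1308 to 4767, from 4053 to 6249 and from 336 to 793 nRPM. Its epithelium sum was above all others, at 82.5 nRPM against 20.4 to 72.0 nRPM. Its red blood cell, white blood cell, neuron and fat sums lay inside the range of the others.

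Imprinted genes are expressed from only the maternal or the paternal chromosome. At the Dlk1-Dio3 locus the paternal copy makes the proteins Dlk1, Rtl1 and Dio3. The maternal copy makes long noncoding RNAs such as Meg3, Rian and Mirg, together with one of the largest groups of microRNAs known in mammals. One set of these microRNAs is transcribed antisense to Rtl1, a gene of retrotransposon origin that the placenta needs, and in the mouse these microRNAs cut the Rtl1 transcript, which they match perfectly. A larger set, from miR-379 to miR-410, lies in the Mirg region and has been studied mostly in neurons. In the rat aorta miR-487b has been linked to remodelling of the vessel wall in hypertension, and in mice inhibitors of miR-329, miR-487b, miR-494 and miR-495 favoured the growth of new vessels after ischemia.

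Of the 74 members, 72 matched a rat mature sequence of RefSeq, and all 72 lie on chromosome 6 of the GRCr8 build and none on chromosome 2, where the congenic segments are. The 72 stretch over 273 kb, chr6:134306510-134579828. The mature sequences of the members that the results turn on are printed 5′ to 3′, with the seed, bases 2 to 8, in capitals. miR-136-5p and miR-127-5p are named without a sequence. The most abundant members other than miR-136-5p are shown first, from the highest level down.
miR-127-3p: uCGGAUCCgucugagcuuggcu
miR-434-3p: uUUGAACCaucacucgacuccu
miR-411-5p: uAGUAGACcguauagcguacg
miR-541-5p: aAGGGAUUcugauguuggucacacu
miR-136-3p: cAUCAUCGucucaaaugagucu
miR-341: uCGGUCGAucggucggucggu
miR-434-5p: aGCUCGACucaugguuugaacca
The seeds of the matched members were nearly all different, with 68 distinct seeds among 72. The next members carry smaller results described below, or are close relatives in sequence.
miR-673-3p: uCCGGGACugaguucugugcac
miR-300-3p: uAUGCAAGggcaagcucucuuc
miR-381-3p: uAUACAAGggcaagcucu
miR-539-3p: cAUACAAGgguaauuucuuuuc
miR-411-3p: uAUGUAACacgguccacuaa
miR-379-5p: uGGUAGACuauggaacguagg
The seed AUACAAG was shared by miR-381-3p and miR-539-3p. miR-300-3p and miR-381-3p differed over their first 18 bases only by G4A, counted from the 5′ end of miR-300-3p, a change inside the seed. The sources used here do not give whether the counting allowed a mismatch, so the split of reads between them is uncertain. miR-379-5p and miR-411-5p share most of their seed but differ at 7 of 21 positions, of which G2A, counted from the 5′ end of miR-379-5p, lies in the seed. The 2 arms of miR-299a and miR-299b share seeds as well, and their hairpins lie on opposite strands of the same stretch. The mature forms of miR-337-5p, miR-409a-3p and miR-434-3p overlap miR-3544, miR-409b and miR-3543 on the opposite strand by 18, 20 and 22 bases. None of those 3 names is in the table, and the sources used here do not give whether the counting used the strand.

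The locus falls into 3 groups of members by position. The set antisense to Rtl1 (miR-127, miR-136, miR-431, miR-433 and miR-434) had 9 rows, of which the 7 with a matched sequence all lie within Rtl1 on the opposite strand. The miR-379/410 cluster had 55 rows within 36.4 kb. The other 10 rows were miR-337, miR-341, miR-370, miR-540, miR-665 and miR-673. A gap of 188.9 kb without a member separates miR-370 from miR-379. The set antisense to Rtl1 carried 83.3% of the mean signal of all 74 members, the miR-379/410 cluster 15.3% and the rest 1.403%. A median of 65.2% of the cluster's signal in a library was miR-127-3p alone, with a range of 57.7% to 76.1%.

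**Figure D1:**
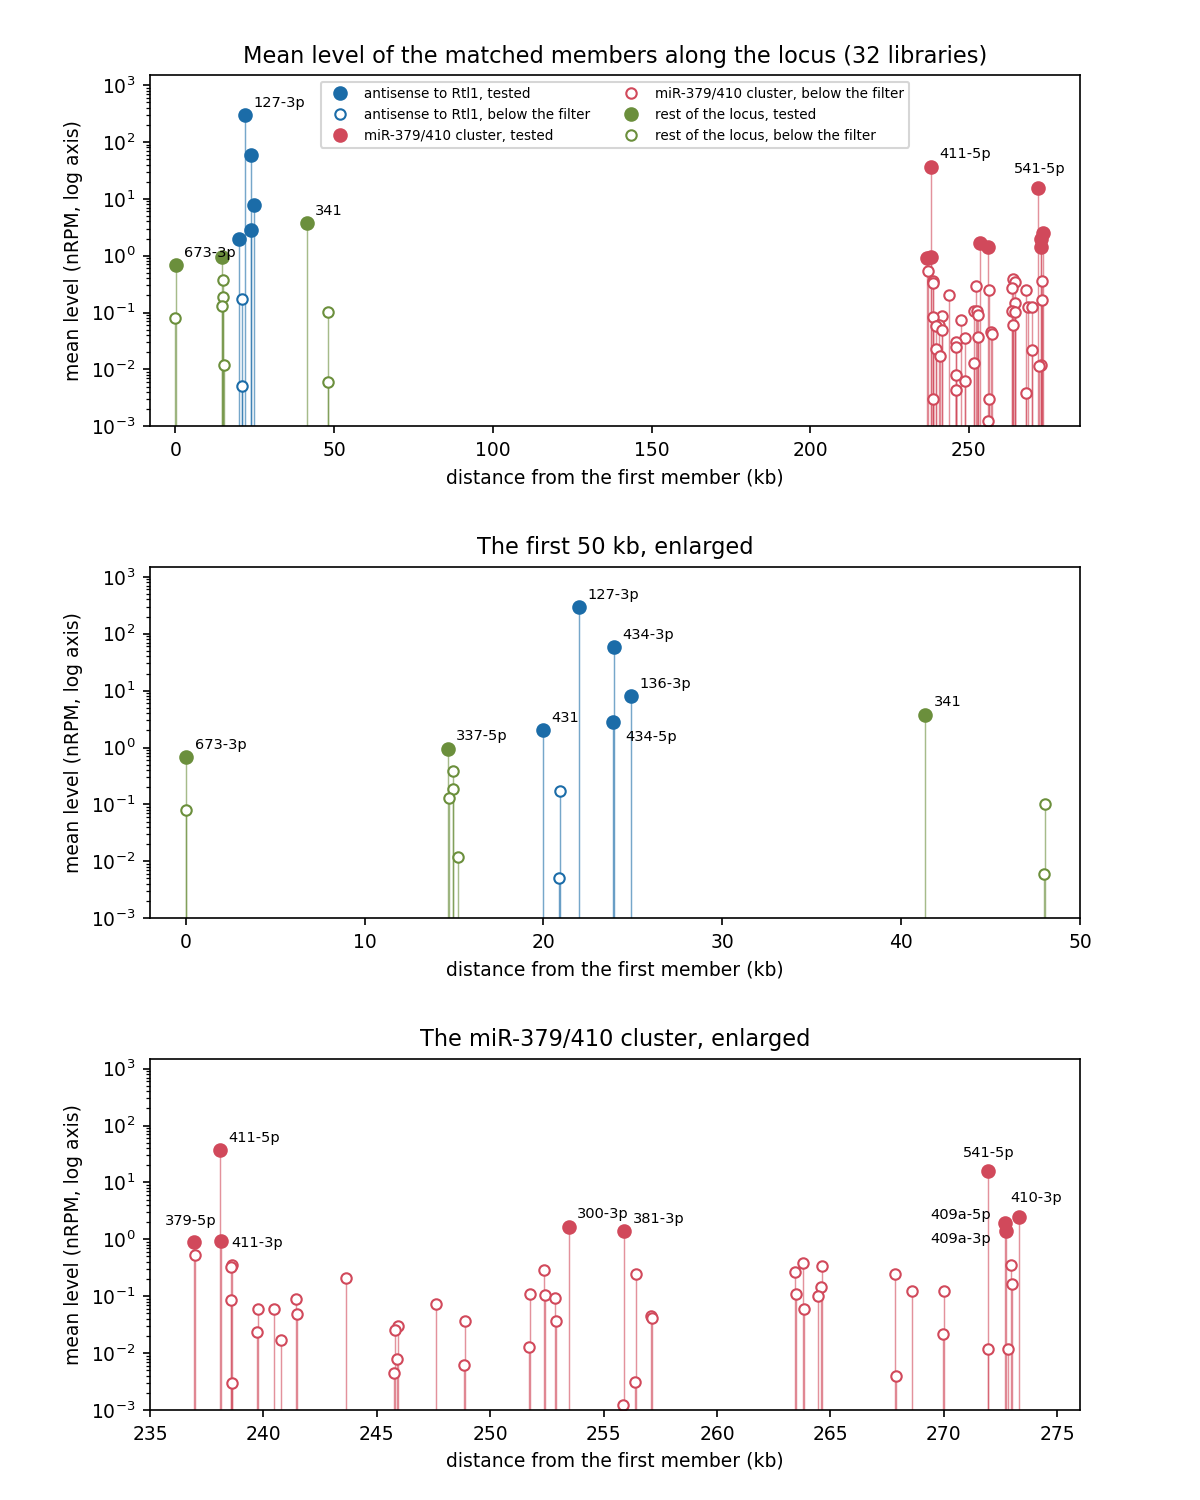
Mean level of the 72 matched members over 32 libraries (nRPM, log axis) against distance from the first member in kb, for the whole locus, its first 50 kb and the miR-379/410 cluster. Filled points passed the filter on low values and open points did not. The highest points are miR-127-3p at 297 nRPM and miR-434-3p at 58.1 nRPM, in the set antisense to Rtl1.

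The cluster was a minor part of the aortic microRNAs. The 74 members together averaged 449 ± 169 nRPM (SD, n = 32), with a range of 173 to 1036 nRPM, which was 0.0158% to 0.143% of a library's signal. The 32 libraries held 264008 reads of the cluster in all, 3303 to 24461 per library. The most abundant member, miR-127-3p, averaged 297 ± 130 nRPM (SD, n = 32) and ranked 63rd among the 835 names. miR-434-3p, its neighbour within Rtl1, averaged 58.1 ± 19.8 nRPM (SD, n = 32) and ranked 106th. From the miR-379/410 cluster, miR-411-5p averaged 36.8 ± 15.4 nRPM and miR-541-5p 15.8 ± 7.32 nRPM (SD, n = 32). The next 4 were miR-136-3p at 7.89 ± 2.50 nRPM, miR-136-5p at 5.57 ± 2.57 nRPM, miR-341 at 3.77 ± 1.42 nRPM and miR-434-5p at 2.83 ± 1.12 nRPM (SD, n = 32). These 8 held 95.2% of the cluster's signal. From miR-434-3p down, the mean ± SD of each of them overlapped that of the next.

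At least 1 nRPM in at least 5 libraries was asked of a name to be tested, which 484 of the 835 names and 18 of the 74 members met. Besides the 8 most abundant, these were miR-410-3p, miR-431, miR-409a-5p, miR-300-3p, miR-409a-3p, miR-381-3p, miR-337-5p, miR-411-3p, miR-379-5p and miR-673-3p, with means from 2.49 down to 0.681 nRPM. The lowest of them was miR-673-3p, at 1 nRPM or more in 6 libraries, followed by miR-337-5p in 10. Just outside were miR-379-3p with 4 such libraries, miR-127-5p with 2 and miR-485-3p with 1. The 6 libraries of miR-673-3p were SS normal-salt replicates 2, 3, 5 and 6, SS high-salt replicate 1 and S2Bb normal-salt replicate 3. Without the SS normal-salt libraries miR-673-3p would not have met the filter. Its comparisons with that group are therefore tied to the filter. The 56 members below the filter averaged 0.00124 to 0.538 nRPM and had 1 to 334 reads over all 32 libraries. Of these 56, 5 had a read in every library and 15 in fewer than 10 libraries. A library with no read of a name allows up to 0.0769 to 0.941 nRPM by 3 reads, depending on its depth, for counting error only. Between 14 and 35 of the 74 members had no read in a given library, the most in the shallow SS high-salt replicate 2.

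The vascular members named above were all below the filter, a choice of names made after their values were seen. miR-487b-3p averaged 0.2502 ± 0.166 nRPM with 152 reads over 31 of the 32 libraries, and miR-494-3p 0.207 ± 0.145 nRPM with 121 reads over 27 libraries (SD, n = 32). miR-329-5p averaged 0.0882 ± 0.0694 nRPM (51 reads) and miR-495 0.0727 ± 0.0882 nRPM (41 reads). miR-134-5p, which in rat neurons limits the size of dendritic spines, averaged 0.383 ± 0.392 nRPM with 197 reads. Members below the filter were tested between groups only in an alternative with no filter on low values. A further 5 names of the table lie on chromosome 6 in this locus but outside the rule, among them miR-1193-3p at 0.208 nRPM and miR-493-5p at 0.180 nRPM, and none of the 5 was tested.

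A microRNA hairpin is cut into a 5p and a 3p arm, of which one is usually kept. For 31 hairpins both arms were in the table. The 3p arm had the higher mean in 18 and the 5p arm in 13, and in 10 the arms differed more than 10-fold. For miR-127 the 5p arm had 294 reads and the 3p arm 172886, a 5p share of 0.170% (95% exact interval 0.151% to 0.190%). For miR-541 it was the reverse, with 99.9% of reads from the 5p arm. In 5 hairpins the arms lay within 2-fold of each other. One of them was miR-136, with 41.1% of its reads from the 5p arm (95% exact interval 40.05% to 42.2%), and its 3p arm was the higher in 29 of 32 libraries. These intervals cover counting error only.

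Both arms passed the filter for miR-136, miR-409a, miR-411 and miR-434. The 5p share of miR-434 was 5.18 ± 2.59% in SS, 3.28 ± 0.920% in S2Ba and 4.40 ± 1.35% in S2Bb on normal salt (SD, n = 5, 5 and 6 libraries). On high salt it was 4.32 ± 1.37%, 5.47 ± 1.27% and 5.98 ± 1.92% in the same order. miR-411 kept a 5p share of 96.9% to 97.9% in the 6 group means. The group means of miR-136 lay between 36.9% and 46.4%, with SDs of 3.98 to 10.4 percentage points. No test was made of these shares, and the groups' spreads overlap.

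The summed level of the cluster had overlapping ranges in SS on both diets, and its mean there on high salt rested on 2 libraries. It averaged 510.2 ± 80.8 nRPM in SS on normal salt and 623 ± 321 nRPM on high salt (SD, n = 5 each). It averaged 488 ± 98.5 and 371 ± 113 nRPM in S2Ba (SD, n = 5 each), and 364 ± 101 and 372 ± 61.8 nRPM in S2Bb (SD, n = 6 each), on normal and high salt. Among the SS high-salt libraries, replicates 1 and 2 reached 905 and 1036 nRPM, while the other 3 lay at 356, 408 and 408.9 nRPM. Without the 2 libraries under 10 M reads, the SS means were 491 nRPM on normal salt and 519.7 nRPM on high salt. S2Bb normal-salt replicate 2, a library of 27.5 M reads, had the lowest sum at 173 nRPM. Whether an aorta held fewer cells that express the cluster, or less of it per cell, cannot be told apart in whole tissue.

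**Figure D2:**
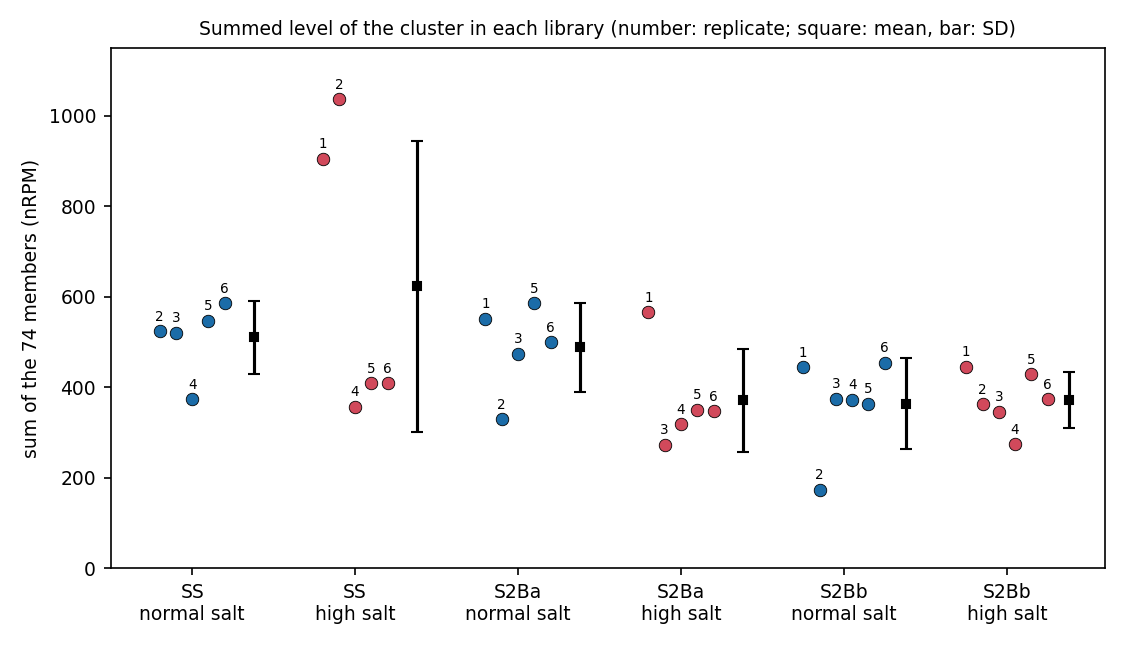
Summed level of the 74 members in each library (nRPM), by strain and diet. Points are libraries with their replicate number, squares are group means and bars are SDs over 5 or 6 libraries. SS high-salt replicates 1 and 2 lie highest at 905 and 1036 nRPM, and S2Bb normal-salt replicate 2 lies lowest at 173 nRPM.

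The diet question was put in each strain. Members went together across libraries, with a median Pearson r of 0.45 over their 153 pairs. Here and below, a count of members in 1 direction is therefore not a count of independent observations. In SS, 0 of the 18 members passed an adjusted p under 0.05 with limma, where 1.03% of all 484 names did. None of the 18 had an unadjusted p under 0.05, against 18.6% of all names. edgeR and DESeq2 on recovered reads also called 0, beside 0.826% and 2.69% of all names, and gave 0 an unadjusted p under 0.05, beside 20.2% and 19.6%. Of the 18, 9 were lower on high salt, beside 52.5% of all names, and the median log2 change was -0.01, beside -0.02 for all names. Scaled by total reads, which moved the median of all names to 0.13, 5 of 17 were lower and the median was 0.17. With no filter on low values limma called 1 of 74 members, miR-382-3p, beside 0.481% of all names.

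miR-127-3p, which pairs perfectly with Rtl1, measured 303, 339, 233.7, 355 and 393 nRPM in the SS libraries on normal salt. On high salt it measured 645, 788, 233, 264 and 261 nRPM. Of the high-salt libraries, 2 were above every normal-salt library and the other 3 lay within or just under the normal-salt range. The log2 change was 0.26 (SE 0.29, adjusted p = 0.640, limma). It was -0.0033 without SS high-salt replicate 2, the shallowest library, and 0.44 without SS high-salt replicate 4. miR-673-3p had the smallest p in SS, but it met the filter only through the SS normal-salt libraries. It measured 1.45, 1.03, 0.577, 1.07 and 2.01 nRPM on normal salt and 1.07, 0.941, 0.568, 0.790 and 0.339 nRPM on high salt, and the groups overlapped. Its log2 change was -0.34 (SE 0.17, adjusted p = 0.275, limma), and -0.22 without SS normal-salt replicate 6.

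In S2Ba, limma again called 0 of the 18 members, beside 0.826% of all names. edgeR and DESeq2 called 0 as well, beside 0.62% and 2.89%. No member had an unadjusted p under 0.05 with limma or edgeR, where 11.4% and 11.6% of all names did. With DESeq2 2 members did, beside 13.2%. Most members were lower on high salt, 15 of 18 beside 47.7% of all names, with a median log2 change of -0.15 beside 0.01. miR-434-3p, also complementary to Rtl1, measured 51.5, 43.4, 71.2, 69.3 and 56.7 nRPM on normal salt and 63.1, 38.2, 38.5, 40.9 and 37.7 nRPM on high salt. High-salt libraries were below every normal-salt library except replicate 1, at 63.1 nRPM. The log2 change was -0.42 (SE 0.23, adjusted p = 0.580, limma), and -0.55 without that library. miR-411-5p measured 58.1, 22.6, 48.1, 62.1 and 51.7 nRPM on normal salt and 40.4, 20.6, 32.4, 32.3 and 29.7 nRPM on high salt. Of the 5 normal-salt libraries 4 were above all high-salt ones, and the log2 change was -0.58 (SE 0.33, adjusted p = 0.580, limma).

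In S2Bb the diet comparison called 0 of the 18 members with limma, beside 5.99% of all names, and 0 with edgeR and DESeq2, beside 7.23% and 8.47%. The number with an unadjusted p under 0.05 was 1 with limma, beside 15.9% of all names, and 0 with edgeR and with DESeq2, beside 16.9% and 18.4%. Of the 18, 8 were lower on high salt beside 46.9% of all names, with medians of 0.04 and 0.03. The exception was miR-541-5p, the fourth most abundant member. It ranged from 5.66 to 18.3 nRPM with a median of 9.41 on normal salt, and from 11.9 to 17.3 nRPM with a median of 15.3 on high salt. The normal-salt libraries were mostly lower but the groups overlapped, and the log2 change was 0.54 (SE 0.26, adjusted p = 0.290, limma).

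The next most abundant members overlapped between the groups. miR-136-3p, which is antisense to Rtl1, measured 12.3, 8.21, 10.1, 12.97 and 4.95 nRPM in SS on normal salt and 12.2, 3.45, 9.44, 8.48 and 7.30 nRPM on high salt. In S2Ba it measured 5.26, 8.04, 6.60, 10.3 and 7.41 nRPM on normal salt and 11.3, 4.40, 4.78, 4.61 and 6.44 nRPM on high salt, and in S2Bb it ran from 5.11 to 11.4 nRPM and from 5.88 to 8.99 nRPM. Each strain's 2 diets overlapped, and its log2 changes over the 10 comparisons lay between -0.32 and 0.14, with 0.356 as the lowest adjusted p (limma). miR-136-5p, from the same hairpin, ranged from 1.39 to 12.4 nRPM in SS, from 2.51 to 12.2 nRPM in S2Ba and from 2.23 to 9.04 nRPM in S2Bb. miR-341 measured 8.24, 4.66, 2.63, 3.84 and 1.39 nRPM in SS on normal salt and 3.45 to 7.84 nRPM on high salt. It lay between 2.02 and 4.47 nRPM in S2Ba and between 2.55 and 4.52 nRPM in S2Bb, and the strains overlapped. In SS on high salt miR-541-5p measured 22.8, 44.8, 13.2, 14.7 and 19.01 nRPM, with the highest value in replicate 2. In S2Ba it measured 15.1, 12.2, 11.3, 15.9 and 14.6 nRPM on normal salt and 32.6, 10.1, 12.1, 11.2 and 13.4 nRPM on high salt, where replicate 1 was above the other 4.

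Averaged over the strains, diet called 0 of the 18 members with limma, edgeR and DESeq2, which called 13.4%, 14.7% and 18% of all names. An unadjusted p under 0.05 was found in 1 member with limma, beside 27.9% of all names, and in 2 with edgeR and with DESeq2, beside 29.1% and 32%. That member was miR-673-3p, with a log2 change of -0.23 (SE 0.10, adjusted p = 0.116, limma). It was one of the rarest members tested, with 385 reads in all, and met the filter only through SS on normal salt. The median log2 change of the 18 was -0.04 beside -0.02 for all names, and 11 of the 18 were lower on high salt beside 51.7% of all names.

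The strain comparisons asked whether the cluster differed between SS and each congenic strain on the same diet. Both congenic strains were set against the same SS libraries on each diet, so these comparisons are not independent of each other. Nor are the members independent, since they went together across libraries. On normal salt, S2Ba against SS called 0 of 18 members with limma, edgeR and DESeq2, beside 0.413%, 0.62% and 3.72% of all names. The number of members with an unadjusted p under 0.05 was 3 with limma, all lower in S2Ba, beside 15.1% of all names, and 2 with edgeR and with DESeq2, beside 18.2% and 17.8%. Among the 3 was miR-673-3p, which met the filter only through SS on normal salt. Of the 18, 13 were lower in S2Ba beside 56.6% of all names, with medians of -0.23 and -0.05. Scaled by total reads, which moved the median of all names to 0.12, 9 of 17 were lower and the median was -0.02.

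The clearest separation was that of miR-434-5p, the minor arm of the miR-434 hairpin. It measured 3.62, 3.23, 5.00, 4.41 and 2.47 nRPM in SS and 1.61, 2.05, 1.44, 2.35 and 2.10 nRPM in S2Ba on normal salt. Every SS library was above every S2Ba library. It was the only one of the 18 members whose groups did not overlap here, beside 2.89% of all names. The log2 change was -0.69 (SE 0.25), with an adjusted p of 0.186 in limma, 0.166 in edgeR and 0.0974 in DESeq2. On high salt the 2 strains overlapped in miR-434-5p, from 1.85 to 5.62 nRPM in SS and 1.85 to 5.08 nRPM in S2Ba. The log2 change there was -0.23 (SE 0.25, adjusted p = 0.693, limma). The other arm, miR-434-3p, measured 89.8, 64.5, 48.5, 75.7 and 99.5 nRPM in SS, and 3 of these were above the highest S2Ba library. miR-379-5p, the first member of the miR-379/410 cluster, had the next smallest p (log2 change -0.60, SE 0.24, adjusted p = 0.207, limma). It measured 2.63, 1.29, 1.09, 1.95 and 0.464 nRPM in SS and 0.465 to 0.877 nRPM in S2Ba, and SS replicate 6, a library of 6.56 M reads, was the only SS library not above all of S2Ba.

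S2Bb against SS on normal salt called 0 of 18 members with limma, edgeR and DESeq2, beside 0.826%, 1.03% and 2.27% of all names. Limma, edgeR and DESeq2 each gave 2 members an unadjusted p under 0.05, beside 11% of all names with limma and edgeR and 12.4% with DESeq2. Of the 18 members, 17 were lower in S2Bb, beside 48.8% of all names, and the median log2 change was -0.30 beside 0.01. miR-673-3p averaged 1.23 ± 0.536 nRPM in SS (SD, n = 5) and 0.606 ± 0.286 nRPM in S2Bb (SD, n = 6). The S2Bb libraries ran from 0.319 to 1.10 nRPM with a median of 0.514 and overlapped SS, and the log2 change was -0.46 (SE 0.16, adjusted p = 0.193, limma). miR-673-3p met the filter only through SS on normal salt, so this difference is tied to the filter. miR-541-5p measured 15.9, 15.1, 14.9, 18.9 and 23.05 nRPM in SS and 5.66 to 18.3 nRPM in S2Bb. Of the 6 S2Bb libraries, 5 were below all of SS, and the log2 change was -0.75 (SE 0.27, adjusted p = 0.202, limma).

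On high salt, S2Ba against SS called 0 of 18 members with limma and with edgeR, which each called 0.207% of all names. DESeq2 called 2, miR-127-3p and miR-434-3p, both lower in S2Ba, where it called 6.20% of all names. It gave an adjusted p to 9 of the 18 members here, so the other 9 could not be called by it. Of all names to which DESeq2 gave an adjusted p here, it called 9.01%. The number with an unadjusted p under 0.05 was 4 with each tool, all lower in S2Ba, beside 16.9%, 16.7% and 17.1% of all names with limma, edgeR and DESeq2. Of the 18 members 17 were lower, beside 48.1% of all names, with a median log2 change of -0.36 beside 0.02. miR-434-3p measured 80.3, 119, 52.4, 55.4 and 59.0 nRPM in SS and 63.1, 38.2, 38.5, 40.9 and 37.7 nRPM in S2Ba. The S2Ba libraries were below all of SS except replicate 1. The log2 change was -0.69 (SE 0.23), with an adjusted p of 0.103 in limma, 0.0984 in edgeR and 0.0282 in DESeq2. It was -0.50 without SS high-salt replicate 2, the shallowest library, which lay outside the others in several marker sums. miR-127-3p measured 366, 176, 207, 241 and 236 nRPM in S2Ba, against 645, 788, 233, 264 and 261 nRPM in SS, and the groups overlapped. Its log2 change was -0.68 (SE 0.29), with an adjusted p of 0.195 in limma, 0.108 in edgeR and 0.0368 in DESeq2. Without SS high-salt replicate 2 it was -0.42 (adjusted p = 0.607, limma). miR-409a-5p and miR-341 were the other members with an unadjusted p under 0.05 in limma, with log2 changes of -0.65 (SE 0.25) and -0.59 (SE 0.24) and adjusted p of 0.169 and 0.195.

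S2Bb against SS on high salt called 0 of 18 members with limma and with edgeR, beside 0% of all names with each. DESeq2 gave an adjusted p to 4 of the 18 members, miR-127-3p, miR-434-3p, miR-411-5p and miR-541-5p, and called none of them, beside 0% of all names. The other 14 could not be called by it. The number with an unadjusted p under 0.05 was 5 with limma and 6 with edgeR and with DESeq2, all lower in S2Bb, beside 11.6%, 12.4% and 13% of all names. Without the 2 libraries under 10 M reads it was 1 with limma, beside 7.68% of all names. At that setting it was 3 for S2Ba against SS on high salt, beside 62 of 482 names. On normal salt it rose to 5 for S2Ba and 4 for S2Bb against SS, beside 106 and 53 of 482 names. None of these members was called. Of the 18 members 16 were lower, beside 47.1% of all names, with a median log2 change of -0.27 beside 0.04. miR-434-3p ranged from 35.3 to 57.8 nRPM with a median of 44.1 in S2Bb, and the lowest 3 of the 5 SS libraries lay at 52.4, 55.4 and 59.0 nRPM. The groups overlapped, and the log2 change was -0.64 (SE 0.22, adjusted p = 0.300, limma). miR-127-3p ranged from 172 to 297 nRPM with a median of 238 in S2Bb, which held 3 of the 5 SS libraries within it. Its log2 change was -0.68 (SE 0.27, adjusted p = 0.300, limma), and -0.42 without SS high-salt replicate 2. The other members with a small p were miR-431, miR-337-5p and miR-409a-5p, with log2 changes of -0.61, -0.53 and -0.59. Without SS high-salt replicate 2 they were -0.40, -0.31 and -0.39.

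**Figure D3:**
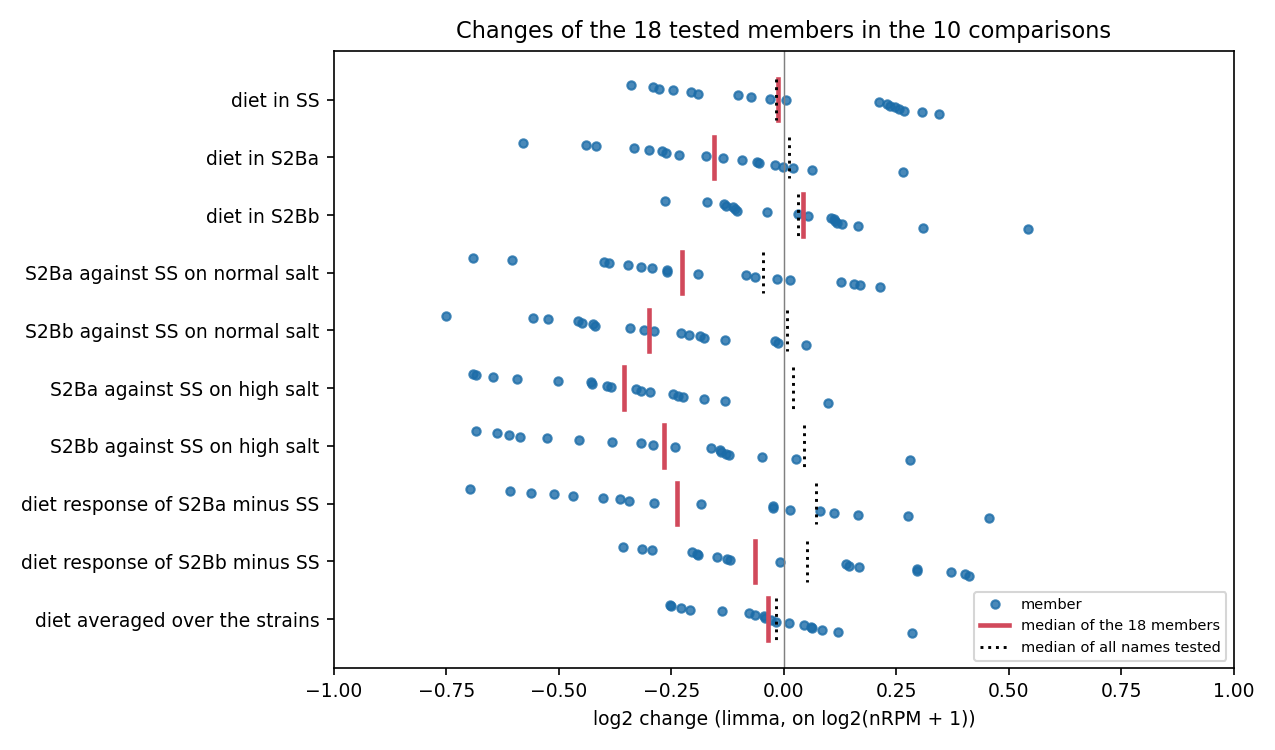
Log2 change of the 18 tested members (points) in the 10 comparisons, from limma on log2(nRPM + 1), with the median of the members (solid line) and of all 484 names tested (dotted line). The member medians lie left of those of all names in the 4 comparisons with SS, from -0.36 to -0.23, while no member passed the adjusted threshold. Comparisons that share a group of libraries are not independent, and neither are the members, which went together across libraries.

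Whether the response to salt differed between a congenic strain and SS was tested as a difference of diet responses, which uses the same SS libraries in both. For S2Ba, 0 of 18 members passed with limma, edgeR and DESeq2, beside 0%, 0% and 0.62% of all names. The number with an unadjusted p under 0.05 was 1 with limma and 2 with edgeR and with DESeq2, beside 7.44%, 7.64% and 9.3% of all names. The 1 member was miR-300-3p, a close relative of miR-381-3p. It measured 1.45, 1.16, 1.28, 1.57 and 1.70 nRPM in SS on normal salt and 2.96, 3.45, 1.63, 1.90 and 1.08 nRPM on high salt. In S2Ba it measured 2.12, 0.913, 2.24, 2.47 and 1.63 nRPM on normal salt and 1.96, 1.13, 1.18, 1.20 and 1.34 nRPM on high salt. High-salt libraries were mostly higher in SS and mostly lower in S2Ba, with overlap in both strains. The difference of the log2 changes was -0.61 (SE 0.29, adjusted p = 0.620, limma).

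For S2Bb, 0 of 18 members passed with limma and edgeR, beside 0.413% and 0.62% of all names. DESeq2 called 0 of the 9 members to which it gave an adjusted p, beside 1.45% of all names and 2.17% of the names with an adjusted p. None had an unadjusted p under 0.05 with any of the 3 tools, where 9.5%, 11% and 11% of all names did. The smallest p was that of miR-411-3p, the minor arm of the miR-411 hairpin, with a difference of 0.37 (SE 0.33, adjusted p = 0.789, limma). It was 0.23 without SS high-salt replicate 4. The median difference of the 18 members was -0.24 for S2Ba and -0.06 for S2Bb, beside 0.07 and 0.05 for all names, and 12 and 10 of the 18 were negative. Scaled by total reads, the S2Ba median was -0.48 beside -0.10 for all names, and 14 of 17 were negative.

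Across single libraries many members were high or low together. In SS high-salt replicate 2 miR-127-3p, miR-434-3p, miR-541-5p and miR-431 were at their highest over all libraries, at 788, 119, 44.8 and 5.96 nRPM. The 2 arms of miR-136 were low in that library, at 3.45 and 2.51 nRPM, and so was miR-411-5p at 21.3 nRPM. In SS high-salt replicate 1 miR-127-3p measured 645 nRPM and miR-411-5p 87.8 nRPM, while miR-136-3p at 12.2 nRPM was among the highest. S2Bb normal-salt replicate 2 had the lowest miR-127-3p, miR-434-3p, miR-411-5p, miR-541-5p and miR-434-5p of all libraries, at 104, 30.4, 12.1, 5.66 and 0.638 nRPM.

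**Figure D4:**
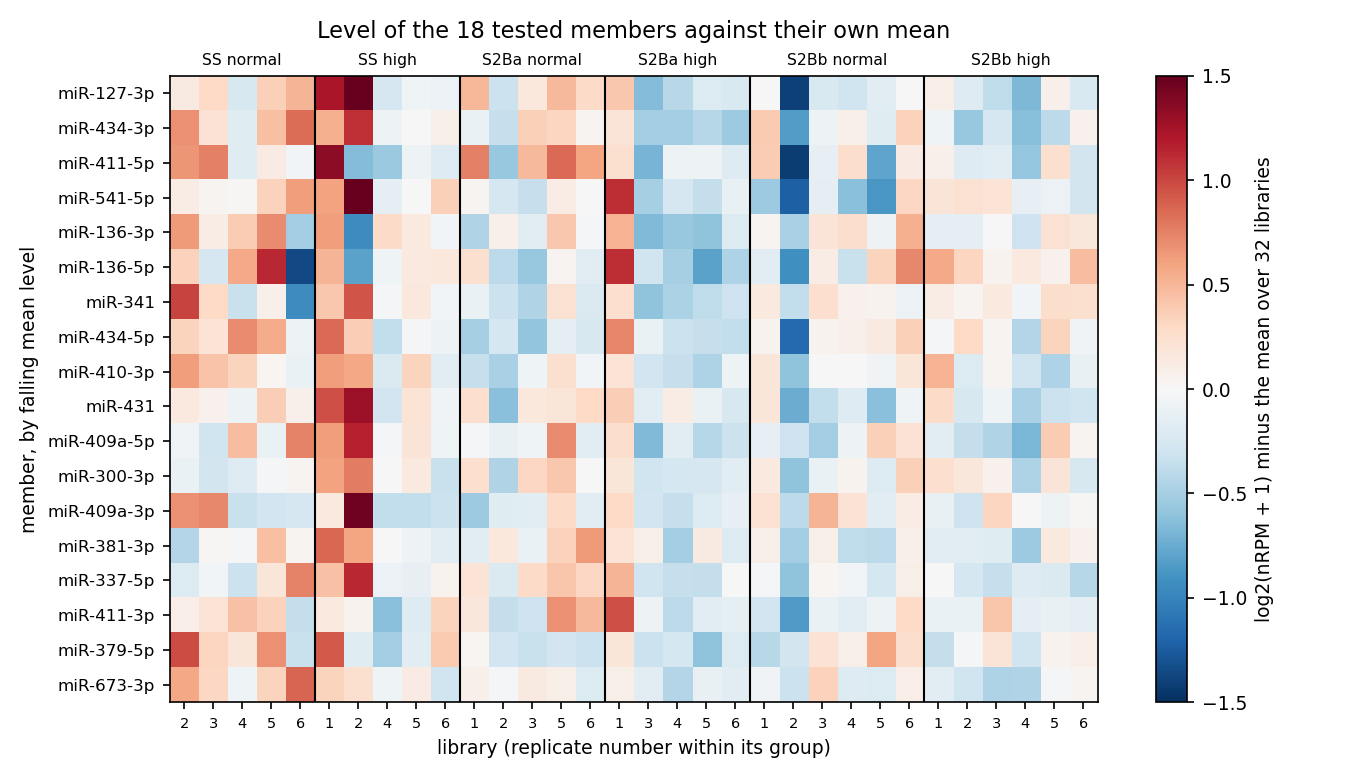
Level of the 18 tested members in 32 libraries, as log2(nRPM + 1) minus each member's mean, with libraries grouped by strain and diet. SS high-salt replicates 1 and 2 are high for most members, S2Bb normal-salt replicate 2 is low for most, and miR-136-3p and miR-136-5p are low in SS high-salt replicate 2.

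Over the 32 libraries, miR-127-3p and miR-434-3p had a Pearson r of 0.81 (permutation p = 1e-05, adjusted p = 7e-05) and a Spearman rho of 0.77 (permutation p = 1e-05, adjusted p = 7e-05). Here 1e-05 is the smallest p that 100000 two-sided permutations can give, and the adjusted p covers the 7 relations of miR-127-3p with the other 7 most abundant members. Without the 2 libraries farthest from the median of miR-127-3p, SS high-salt replicate 2 and S2Bb normal-salt replicate 2, r was 0.71. With miR-541-5p r was 0.78 and rho 0.64 (adjusted permutation p = 7e-05 and 0.000257), and r was 0.58 without those 2 libraries. With miR-411-5p r was 0.61 and rho 0.65 (adjusted permutation p = 0.00049 and 0.000257), and r was 0.82 without them. With miR-434-5p r was 0.56 and rho 0.39 (adjusted permutation p = 0.00208 and 0.0371), and with miR-341 0.46 and 0.41 (adjusted permutation p = 0.0146 and 0.0343). Without those 2 libraries they fell to 0.39 and 0.25.

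The arms of miR-136 did not go along with miR-127-3p. With miR-127-3p, miR-136-3p had r = 0.15 and rho = 0.22 (adjusted permutation p = 0.454 and 0.263), and miR-136-5p had r = 0.14 and rho = 0.20 (adjusted permutation p = 0.454 and 0.277). Without the 2 libraries r was 0.40 and 0.20. The 2 arms of miR-136 went with each other at r = 0.72. Apart from that pair, r of miR-136-3p with single members ran from -0.03 with miR-337-5p to 0.61 with miR-379-5p. For miR-136-5p it ran from -0.08 with miR-337-5p to 0.61 with miR-434-5p. With the group means removed, r with miR-127-3p was 0.82 for miR-434-3p, 0.76 for miR-541-5p and 0.60 for miR-411-5p, and 0.10 and 0.20 for miR-136-3p and miR-136-5p, so these relations were of like size within the groups.

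As a description, the 153 pairs among the 18 members had a median r of 0.45, and 149 were above 0. The members share the library, its depth and its scaling with every other name, and pairs of a member with another name had a median r of -0.03, pairs of 2 other names 0.01. Scaled by total reads the 3 medians were 0.55, 0.10 and 0.10, and without the 2 libraries 0.39, -0.00298 and 0.00795. The highest pair was miR-127-3p with miR-431, also antisense to Rtl1, at r = 0.86, and the lowest miR-136-5p with miR-337-5p at r = -0.08. Ranked by Pearson r of log2(nRPM + 1) over the 32 libraries, the 7 names most like miR-127-3p among 483 others were all members of the cluster, and the 20 most like it held 10 members. The first 7 were miR-431 (0.86), miR-337-5p (0.85), miR-434-3p (0.81), miR-300-3p (0.80), miR-541-5p (0.78), miR-409a-5p (0.71) and miR-381-3p (0.70). They come from all 3 position groups and both sides of the 188.9 kb gap. The first name outside the cluster was miR-542-5p at r = 0.63.

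**Figure D5:**
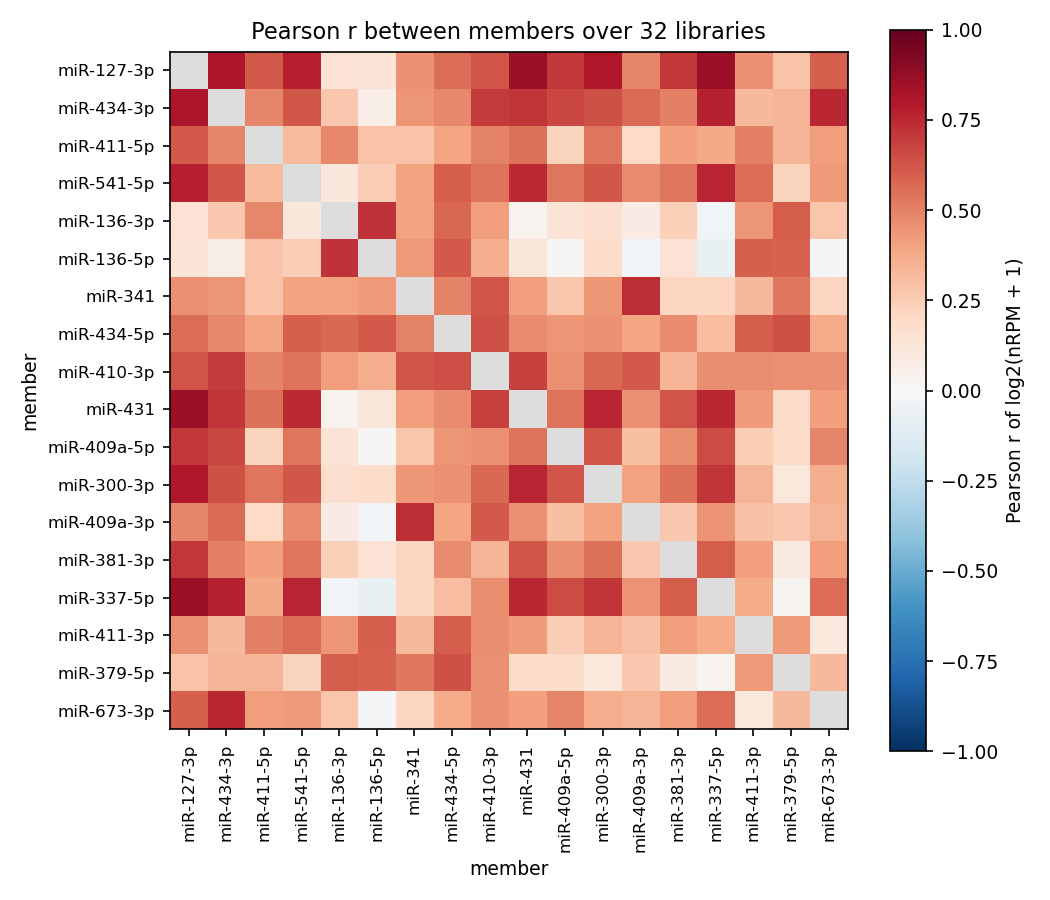
Pearson r between each pair of the 18 tested members over 32 libraries, on log2(nRPM + 1), with the diagonal in grey. Most pairs are above 0, up to 0.86 for miR-127-3p with miR-431, and among the palest cells are those of miR-136-3p and miR-136-5p with miR-337-5p.

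Why members of both sides of the gap moved together across libraries was not tested. The RefSeq promoter window of Meg3, the maternal noncoding gene before the microRNAs, is shown as a description of the locus. It runs from 250 bases before to 50 bases after the start of the gene, chr6:134273806-134274105 on the plus strand of GRCr8. Capitals mark 2 motifs searched on both strands, the cAMP response element TGACGTCA, 66 bases before the start, and the TATA-like TATATAA, 36 bases before it, which do not overlap.
Meg3: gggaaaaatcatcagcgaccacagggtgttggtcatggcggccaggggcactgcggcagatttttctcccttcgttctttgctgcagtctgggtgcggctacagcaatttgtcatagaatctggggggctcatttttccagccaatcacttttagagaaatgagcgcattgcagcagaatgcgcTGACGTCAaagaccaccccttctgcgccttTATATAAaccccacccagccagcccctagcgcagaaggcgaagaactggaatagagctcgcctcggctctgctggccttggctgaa
TGACGTCA was found in 1.83% and TATATAA in 3.93% of 33469 rat promoter windows of the same length. A match is a description of the sequence, and no use of it was measured here. The striated muscle, smooth muscle and epithelium marker sums had a Spearman rho of 0.25, -0.29 and 0.39 with the summed level of the cluster over the 32 libraries, given as a description. For the mesenchyme and fibroblast, neuron and white blood cell sums rho was -0.33, -0.28 and 0.22. For red blood cells, fat, endothelium and liver it was -0.05, -0.05, -0.01 and 0.03. In SS high-salt replicate 1, the second highest library for the cluster, the striated and smooth muscle sums were 651 and 434841 nRPM, inside the range of the other libraries. Their part in the level of the cluster was not tested.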

How the data were processed

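Small RNA libraries of rat aorta were made from 1 microgram of total RNA (integrity number 8 or more) and sequenced from one end for 51 bp, per the labels' protocols. The tools in the submitters' processing notes are STAR 2.3.1, edgeR 3.6.8, R 3.2.3, bcl2fastq 1.8.4 and FastQC. The sources used here give neither what each did nor the build, annotation or scaling. The authors deposited a normalized signal, not on a log scale, for 835 names in 34 columns, called nRPM here. Dividing each column by its smallest step gave whole reads for 100% of values (tolerance 1e-06). Columns summed to 0.726 to 1.30 M nRPM (M for mega).

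Values were transformed as log2(nRPM + 1), which understates the change of rare names, and fitted over all 6 groups with limma 3.58.1 in R 4.3.3 (trend in the variance). A name was tested if 5 or more libraries had 1 nRPM or more of it, and p-values were adjusted (Benjamini-Hochberg) over all 484. A call is an adjusted p under 0.05. The 10 comparisons were 7 pairs of groups, 2 differences of diet responses and the diet change averaged over strains. The count test was run on recovered reads as an alternative. edgeR 4.0.16 (quasi-likelihood, TMM) called 4, 3 and 35 of the 484 names for diet in SS, S2Ba and S2Bb, and DESeq2 1.42.0 called 13, 14 and 41. The fit was tested on simulated data. Correlations used scipy 1.17.1.

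Named in full are the 8 most abundant members, every member called and, where none was, the member with the smallest p in each comparison. Members, lists and tests were chosen with earlier results of these data known. No batch, litter or pairing is in the labels. Animal numbers in the titles go with diet in SS and S2Ba, so an effect of their order cannot be told apart from diet. On normal salt the numbers of S2Bb are all below those of SS, so there their order cannot be told apart from strain. Sequences came from RefSeq tables of the GRCr8 build, matched by name.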

Additional observations from a re-analysis of the deposited data

Results flagged for a closer look

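Each of the 8 most abundant members, the other members named for a comparison and the summed level was looked at in each group for 1 library far from the rest, by Dixon's ratio at the 95% level. Of 72 groups of values 13 had such a library, where chance gives about 1 in 20 groups. Members of 1 library are not independent of each other.

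S2Ba high-salt replicate 1, a library of 12.2 M reads, accounted for 8 of the 13, each time as the highest of 5. There miR-434-3p was 63.08 nRPM (others up to 40.9), miR-541-5p 32.59 (others up to 13.4), miR-136-5p 12.2 (others up to 3.99) and miR-341 4.472 (others up to 2.69). miR-434-5p was 5.081 nRPM (others up to 2.44), miR-300-3p 1.965 (others up to 1.34), miR-411-3p 2.642 (others up to 0.773) and the summed level 565.6 (others up to 351). The smooth muscle markers summed to 382698 nRPM in this library, the lowest of its group. The white blood cell markers summed to 493.8 nRPM and the mesenchyme and fibroblast markers to 6249 nRPM, each the highest of all 32 libraries. The striated muscle markers summed to 755 nRPM, the highest apart from SS high-salt replicate 2. The part of these markers in the levels of the cluster was not tested.

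S2Bb normal-salt replicate 2 was the lowest of 6 for miR-127-3p at 104.2 nRPM (others from 224), for miR-434-5p at 0.6382 (others from 2.81) and for the summed level at 173 (others from 363). In SS high-salt replicate 1 miR-411-5p was 87.76 nRPM, against 32.2 at most in the other 4 libraries. In S2Bb high-salt replicate 3 miR-411-3p was 1.491 nRPM, against 0.749 at most in the other 5.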

How the results depend on the processing

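The count of members called was 0 in all 10 comparisons and under every alternative tried, with 2 exceptions. DESeq2 called 2 members, miR-127-3p (log2 change -0.84, adjusted p = 0.0368) and miR-434-3p (-0.73, adjusted p = 0.0282), lower in S2Ba than in SS on high salt. Without a filter on low values limma called 1 member for diet in SS, miR-382-3p (log2 change -0.29, adjusted p = 0.0284), which had 15 reads in 5 SS libraries on normal salt and 2 reads in 5 on high salt. At that setting limma called 0.481% of all names. DESeq2 gave no adjusted p to 9 of the 18 members in S2Ba against SS on high salt, to 14 in S2Bb against SS on high salt and to 9 in the difference of diet responses of S2Bb, so its counts leave these out. The alternatives were a pseudocount of 0.25, a filter at a mean of 10 nRPM, scaling by total reads or by DESeq2 size factors, edgeR, only the compared groups, the identical library under either label, each library left out in turn and, added after seeing the data, no library under 10 M reads. With each library left out in turn the counts stayed at 0, and the member with the smallest p in each of the 10 comparisons kept the sign of its log2 change under every alternative. Of the 80 log2 changes of the 8 most abundant members, 34 turned their sign under at least 1 alternative, among them miR-127-3p for diet in SS, from 0.26 to -0.0033 without SS high-salt replicate 2. With each library left out in turn, the change of miR-434-3p in S2Ba against SS on high salt ran from -0.83 to -0.50. The median change of the members with diet averaged over strains ran from -0.09 to 0.01 with each library left out in turn. Over all alternatives it ran from -0.13 with the filter at 10 nRPM to 0.05 with total-read scaling. Total-read scaling moved the median of all names by over 0.1 for diet in SS (to 0.13), for S2Ba against SS on normal salt (to 0.12) and for the difference of diet responses in S2Ba (to -0.10). No paired analysis was possible because the labels give no replicate numbers shared between groups. Counts of reads limit what can be said of the 56 members below the filter.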
